A study of Mus musculus with 9 samples.

Results

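The nuclear-encoded genes of the mitochondrial respiratory chain and ATP synthase were examined in activated CD4+ T cells (T helper lymphocytes) after exposure to macrophage exosomes. Members were the protein-coding genes whose mouse symbol starts with Nduf, Sdha to Sdhd, Uqcr, Cox4 to Cox8, or Atp5 and whose mean level over the 9 libraries was at least 1 CPM (a count scaled to library size). Of 55536 gene identifiers in the count table, 98 matched by symbol and 89 reached that level, among 10714 protein-coding genes that did. They comprised 35 subunit genes of complex I, 4 of complex II, 8 of complex III, 13 of complex IV and 17 of complex V, and 12 assembly factors, which help to build complexes I and II without staying in them. Ndufa4 carries a complex I name but its protein is found in complex IV, and it was counted there, as was Cox7a2l, a factor that joins complexes III and IV into supercomplexes. Atp5s was counted with complex V by its prefix but was not placed in any part of that enzyme. The counts of subunit genes include Cox7a2l and Atp5s.

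The cells came from spleens of male mice aged 6 to 12 weeks and were WT in genotype in all 3 groups. All were stimulated for 18 h with anti-CD3/anti-CD28 beads, which trigger the T cell receptor and its costimulator, plus 5 ng/mL of murine IL-2, a T cell growth factor. During that time 3 cultures received EKO-BMDM-exo, exosomes of BMDM (commonly short for bone marrow-derived macrophages) from ApoE-deficient mice, and are called EKO_exo here. A further 3 received WT-BMDM-exo, the same kind of vesicle from wild-type mice (WT_exo), and 3 received PBS without exosomes (PBS). Both exosome doses were 2e+09 particles per mL. The cells themselves carried no ApoE deletion, so the genotypes differ in the exosome donors only.

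Complex I oxidises NADH, complex II oxidises succinate, and both pass electrons through ubiquinone to complex III, which hands them to cytochrome c and so to complex IV, where oxygen is reduced. Complexes I, III and IV pump protons across the inner mitochondrial membrane, and complex V, the ATP synthase, uses the returning protons to make ATP. T cells gain mitochondrial mass when they are activated, and their early proliferation is known to need respiration. Apart from complex II, each complex also holds subunits encoded by mitochondrial DNA, so its assembly draws on both genomes.

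Library totals ran from 25792975 to 32971791 counts. The 8 CD4 T cell markers summed to 4737 to 4814 CPM in EKO_exo, 4556 to 4662 CPM in WT_exo and 4732 to 4834 CPM in PBS. Both CD8 markers together reached at most 10.4, 10.2 and 12.3 CPM in those groups, the 4 B cell markers at most 6.64, 4.88 and 5.05 CPM, and the 5 macrophage markers 23.8 to 28.6, 21.6 to 29.0 and 18.4 to 28.7 CPM. The pairs of markers for NK cells and neutrophils stayed at or under 1.02 CPM, and the erythroid markers Hbb-bs and Hba-a1 were at 0 counts. In a principal component analysis EKO_exo replicate 3 stood apart from the other 8 libraries on the first axis and EKO_exo replicate 1 on the second. On the third axis EKO_exo replicate 2 lay at one end, PBS at the other and WT_exo between them, apart from both. EKO_exo replicates 1 and 3 lay between WT_exo and PBS on this axis, so it did not order the 3 groups. Results with EKO_exo are therefore also given without single libraries where that changes them. In bulk samples, fewer cells of a type and less RNA per cell cannot be told apart.

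Promoter windows, 250 bases before to 50 after the annotated gene start, were matched for 76 of the 89 members in the RefSeq table of build GRCm38.p6. Those of Ndufv1, Atp5b and Cox6a1 are shown because these are the members whose changes against PBS came first or nearest to the test's threshold and whose windows overlap their annotated start. Capitals mark the letters of any searched motif on either strand. The Ndufv1 window lies at chr19:4012706-4013005 on the minus strand, the Atp5b window at chr10:128083057-128083356 on the plus strand, and the Cox6a1 window at chr5:115348909-115349208 on the minus strand.
Ndufv1: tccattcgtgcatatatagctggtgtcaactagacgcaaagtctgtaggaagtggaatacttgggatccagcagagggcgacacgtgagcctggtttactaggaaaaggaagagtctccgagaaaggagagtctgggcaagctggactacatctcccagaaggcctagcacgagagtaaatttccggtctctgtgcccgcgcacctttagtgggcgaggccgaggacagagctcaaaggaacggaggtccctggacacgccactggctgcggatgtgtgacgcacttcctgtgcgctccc
Atp5b: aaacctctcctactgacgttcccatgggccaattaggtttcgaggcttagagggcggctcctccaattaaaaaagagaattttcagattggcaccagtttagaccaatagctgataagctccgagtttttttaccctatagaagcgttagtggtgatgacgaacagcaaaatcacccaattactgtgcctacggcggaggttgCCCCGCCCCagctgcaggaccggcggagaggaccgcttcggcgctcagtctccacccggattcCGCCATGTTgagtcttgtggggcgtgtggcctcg
Cox6a1: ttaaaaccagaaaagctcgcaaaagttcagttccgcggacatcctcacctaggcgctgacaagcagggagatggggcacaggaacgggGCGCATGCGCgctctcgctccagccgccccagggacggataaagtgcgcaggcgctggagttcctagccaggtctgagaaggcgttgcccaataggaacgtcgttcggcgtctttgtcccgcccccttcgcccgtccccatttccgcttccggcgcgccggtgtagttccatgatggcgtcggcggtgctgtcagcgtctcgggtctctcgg
The searched motifs were GCGCATGCG for NRF1, CCGGAAGT for ETS factors such as GABP, AANATGGCG for YY1 and GGGGCGGGG for Sp1, all factors known for binding promoters of respiratory genes. No motif contains another. Atp5b held the Sp1 and the YY1 letters in reverse orientation, Cox6a1 held the NRF1 letters in both orientations in 1 palindromic stretch, and the Ndufv1 window held none.

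Over the 76 member windows, the NRF1 letters occurred in 10, or 13.2%, against 1.75% of all 32851 windows in the table and 2.35% of 21263 windows of protein-coding genes. The YY1 letters were also found in 10 member windows (13.2%), against 2.38% of all windows and 3.12% of protein-coding ones. The NRF1 windows included those of Uqcrc1, Cox6a1, Atp5k and Ndufaf4, and the YY1 windows those of Atp5b, Ndufs4, Ndufs7 and Ndufb11. Sp1 letters stood in 13 member windows (17.1%), against 11.4% of all and 15.4% of protein-coding windows, and ETS letters in 5 (6.58%), against 3.89% and 5.15%, so both shares were near those of protein-coding genes. By complex, YY1 letters were in 6 of 31 complex I windows and in none of 11 complex IV windows, counts too small to rank the complexes. At least 1 of the 4 motifs was present in 34 member windows (44.7%), against 17.5% of all windows and 23.3% of protein-coding ones. A match describes the letters of a window and was not measured as binding.

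The summed level of each complex varied little across the 9 libraries. Complex V genes summed to 3783, 3798 and 3677 CPM in EKO_exo, to 3688, 3693 and 3768 CPM in WT_exo and to 3938, 3897 and 3753 CPM in PBS. Complex I genes summed to 2026 ± 57.4 CPM in EKO_exo, 1968 ± 57.8 CPM in WT_exo and 2027 ± 65.3 CPM in PBS (SD, n = 3 each). Complex IV genes reached 1085 ± 36.2, 1042 ± 25.4 and 1050 ± 33.6 CPM in EKO_exo, WT_exo and PBS, complex III genes 825 ± 22.4, 806 ± 18.7 and 841 ± 26.6 CPM, and complex II genes 640 ± 15.7, 641 ± 21.0 and 656 ± 18.4 CPM. The assembly factors together made 214 ± 7.09, 219 ± 7.10 and 209 ± 3.10 CPM. In each of these sums the highest of the 9 libraries exceeded the lowest by a ratio of 1.07 to 1.10, and the 3 groups overlapped in every sum.

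**Figure D1:**
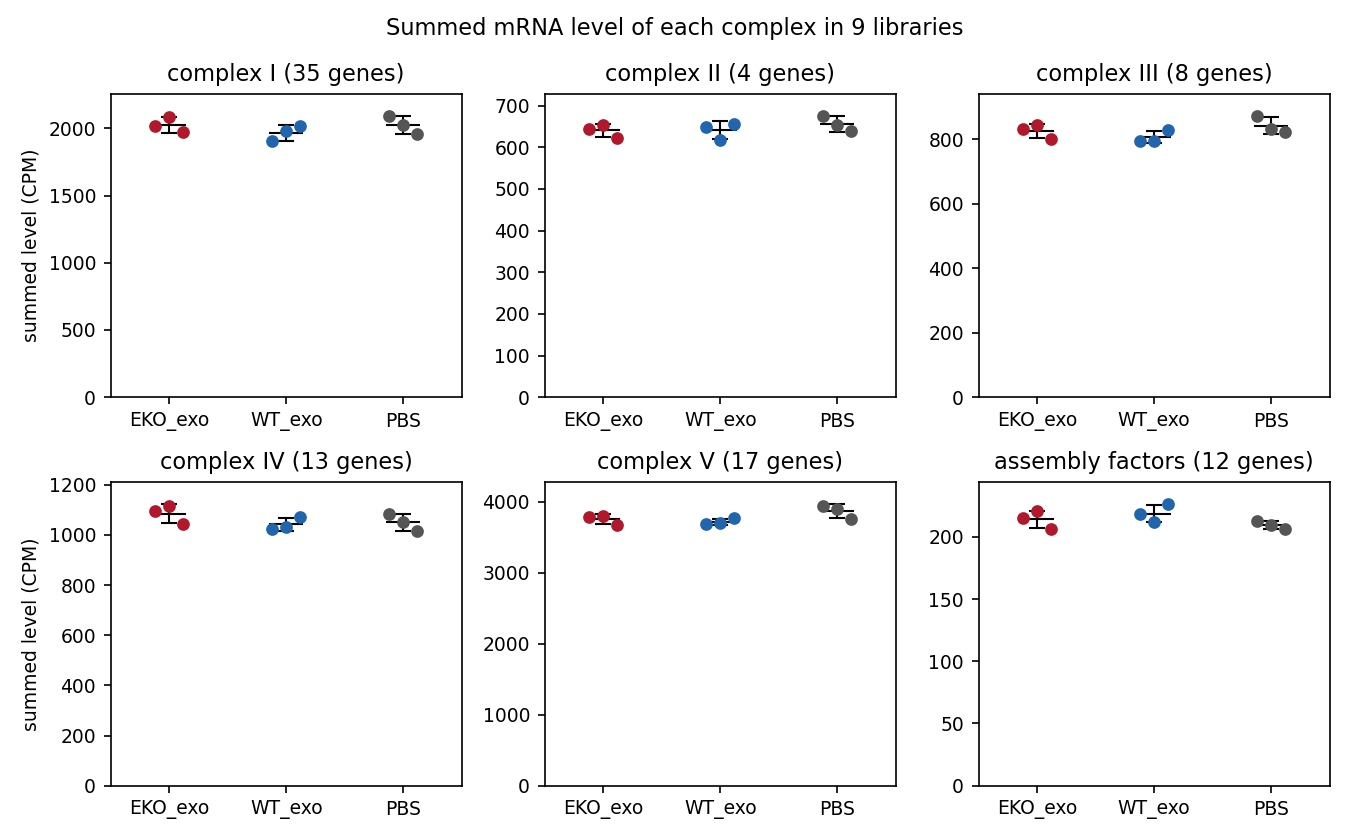
Summed level in CPM (vertical axes, from 0) of the members of each complex and of the assembly factors in EKO_exo, WT_exo and PBS. Dots are single libraries, the wide tick is the group mean and the bar its SD (n = 3). The highest library exceeds the lowest by a ratio of no more than 1.10 in any panel.

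Levels of different genes were compared per kilobase of exon. On that scale Atp5a1 and Atp5b, which encode the alpha and beta subunits of the catalytic head of ATP synthase, stood highest at 346 and 330 CPM per kb, where 1 enzyme holds several copies of each. Within complex II the flavoprotein gene Sdha had 84.8 CPM per kb and the membrane anchor gene Sdhc 23.5. The highest subunits elsewhere were Ndufc2 in complex I (92.9 CPM per kb), Uqcr10 in complex III (117) and Cox8a in complex IV (159). The lowest were Ndufb2 (2.16), Uqcrb (23.1), Cox6b2 (1.197) and, in complex V, Atp5g2 (1.61). Assembly factors lay between 0.703 (Sdhaf3) and 12.9 CPM per kb (Sdhaf1), with a median of 6.77, against a median of 38.0 over the 77 subunit genes.

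This order depends on the length used. With the median length of a gene's protein-coding transcripts in place of all its exons, an alternative chosen after seeing the data, Ndufa6 (179), Uqcrc1 (424), Cox4i1 (275) and Atp5b (729 CPM per kb) led complexes I, III, IV and V. Sdha stayed highest in complex II, and Ndufb2, Cox6b2, Atp5g2 and Sdhaf3 stayed lowest in their groups. A stretch of exon is shared with an overlapping gene by 20 members, among them Ndufb2, Ndufs1, Ndufs3, Uqcrc2, Cox4i1, Atp5l, Atp5g2, Sdhaf1 and Sdhaf4, and reads there cannot be told apart without the strand setting, which is not given. Of the subunit genes, 15 share a stretch of at least 75 bases at 97% identity or more with a pseudogene elsewhere, and their median was 23.1 CPM per kb, against 53.1 in the other 62. The levels of these 15, among them Atp5g1, Atp5g2, Uqcrb, Uqcr11, Ndufs3, Atp5l and Cox7a2l, are uncertain because reads from such stretches can be split or lost.

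**Figure D2:**
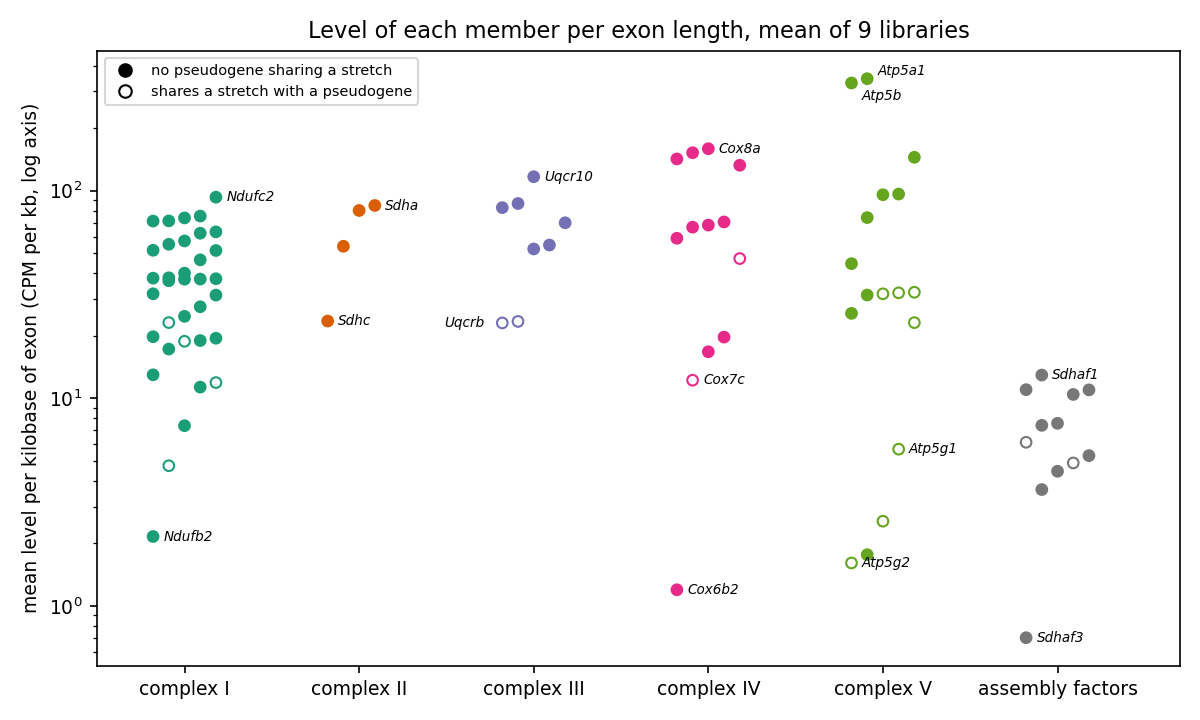
Mean level of each member over the 9 libraries in CPM per kilobase of exon (log axis), by complex. Each dot is 1 gene, open dots share a stretch with a pseudogene; horizontal offsets only separate the dots. Atp5a1 and Atp5b lie above all other members, and the assembly factors lie at or below 12.9 CPM per kb.

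Where multiple genes encode a subunit, a single gene carried most of the signal, in complex IV the broadly expressed form. Of the c-ring genes, which encode the same mature proton-carrying subunit, Atp5g3 had 222, 215 and 192 CPM in EKO_exo, 199, 203 and 212 CPM in WT_exo and 227, 202 and 203 CPM in PBS. Atp5g1 lay between 24.3 and 30.7 CPM in all libraries and Atp5g2 between 1.78 and 5.24 CPM. Per kilobase the same order held, at 95.5 CPM per kb for Atp5g3, 5.69 for Atp5g1 and 1.61 for Atp5g2. Atp5g1 and Atp5g2 share stretches with pseudogenes and Atp5g3 does not, and the part of lost reads in this order was not tested.

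Cox4i1, the general form of complex IV subunit 4, had 199 to 216 CPM, whereas its counterpart Cox4i2 gave 5 counts in the 9 libraries together. Cox6a1 had 101 to 117 CPM, and the heart and muscle form Cox6a2 gave 132 counts in all. Cox7a2 had 56.1 to 72.7 CPM, and the muscle form Cox7a1 gave 72 counts in all. Cox6b1 had 93.9 to 109 CPM against 0.744 to 1.79 CPM for the testis form Cox6b2. Cox8a had 87.3 to 106 CPM. Cox8b, Cox8c and Cox7b2 were at 0 counts in every library, which allows up to 0.0113 CPM (3 counts over the total of all libraries). Such floors and low counts cover counting error only.

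The first comparison asked whether these mRNAs differed after EKO-BMDM-exo from those after PBS. Ndufv1, the complex I subunit that binds NADH and the flavin cofactor, fell, as did Atp5b, and the other 87 members did not pass the test. Both exosome groups share the PBS libraries as their control. Among all 14684 genes tested 5.08% passed, 2.21% higher and 2.87% lower, so 2 of 89 members (2.25%, all lower) is a share below that background. Among the 8584 genes with a mean of 10 CPM or more, where most members lie, 8.26% passed. The median log2 fold change was -0.00088 over the members and 0.00004 over all genes. Unadjusted p was under 0.05 for 10 members (11.2%), 5 higher and 5 lower, against 17.1% of all genes. Members ranged from -0.28 (Ndufc1, an accessory subunit of complex I) to 0.22 (Ndufa6). The 95% interval lay within a 1.5-fold change in either direction for 84 of 89.

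Ndufv1 (ENSMUSG00000037916, chromosome 19, 4007384 to 4012806, minus strand) had 91.2, 95.9 and 96.6 CPM in EKO_exo, 92.8, 96.0 and 101 CPM in WT_exo and 109, 113 and 103 CPM in PBS. All 6 exosome libraries lay below all 3 PBS libraries. Its log2 fold change was -0.19 ± 0.053 (SE) for EKO_exo over PBS (edgeR quasi-likelihood test, adjusted p = 0.0292) and -0.16 ± 0.053 for WT_exo over PBS (adjusted p = 0.0775). The call in EKO_exo was lost without EKO_exo replicate 1 (adjusted p = 0.113), EKO_exo replicate 2 (0.050), PBS replicate 1 (0.107) or PBS replicate 2 (0.195), and without EKO_exo replicates 1 and 3 together (0.324).

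Atp5b (ENSMUSG00000025393, chromosome 10, 128083273 to 128090391, plus strand) had 1365, 1375 and 1357 CPM in EKO_exo, 1358, 1366 and 1407 CPM in WT_exo and 1464, 1459 and 1415 CPM in PBS. Again the exosome libraries all lay below the PBS libraries, and the SD of its log2 values within groups, 0.023, was the smallest of all members. The log2 fold change was -0.082 ± 0.025 for EKO_exo over PBS (adjusted p = 0.0497) and -0.070 ± 0.025 for WT_exo over PBS (adjusted p = 0.115). The first of these stands at the threshold and passed it in 4 of 17 alternatives, over which its adjusted p ranged from 0.0121 to 0.371. Its head partner Atp5a1 had 1086, 1078 and 1061 CPM in EKO_exo, 1065, 1044 and 1080 CPM in WT_exo and 1116, 1138 and 1083 CPM in PBS, with log2 fold changes of -0.049 ± 0.027 (adjusted p = 0.359) and -0.066 ± 0.027 (adjusted p = 0.195).

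**Figure D3:**
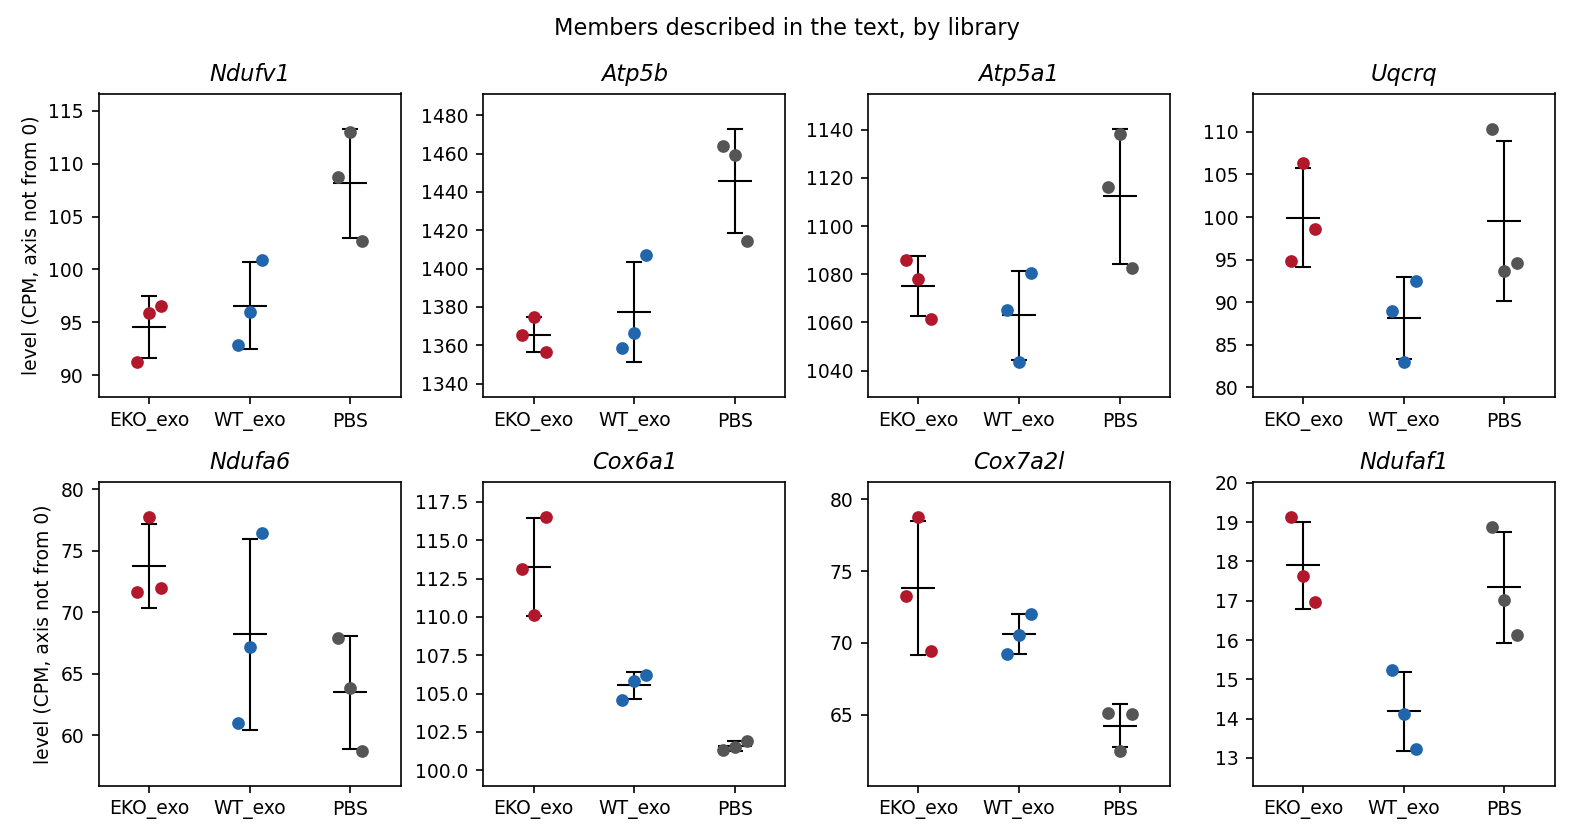
Level in CPM (vertical axes not from 0) of 8 members in EKO_exo, WT_exo and PBS. Dots are single libraries, the wide tick is the mean and the bar the SD (n = 3). For Ndufv1 and Atp5b all exosome libraries lie below all PBS libraries, for Cox6a1 and Cox7a2l all lie above them, and for Ndufaf1 the WT_exo libraries lie below the rest.

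Within complex I, the 7 nuclear core subunits, which carry the electron path, had a median log2 fold change of -0.049 for EKO_exo over PBS, and the 28 accessory subunits one of 0.030. For WT_exo over PBS the signs were the other way round, at 0.009 for the core and -0.041 for the accessory subunits. Of the core genes only Ndufv1 passed. Ndufs7, an iron-sulfur subunit next to the ubiquinone site, had 43.0, 48.8 and 45.0 CPM in EKO_exo, 41.1, 47.1 and 49.3 CPM in WT_exo and 49.0, 52.3 and 50.9 CPM in PBS, with a log2 fold change of -0.15 ± 0.077 for EKO_exo over PBS (adjusted p = 0.304). Its EKO_exo libraries lay just below PBS. Ndufv2, the iron-sulfur partner of Ndufv1, differed by -0.051 ± 0.055 in that comparison. The core genes Ndufs1, Ndufs3 and Ndufs8 differed by -0.025, -0.001 and -0.049, each with an SE of 0.055 to 0.078.

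Ndufa6, an accessory subunit of the LYR protein family, had 71.7, 77.7 and 71.9 CPM in EKO_exo, 60.99, 67.2 and 76.4 CPM in WT_exo and 67.9, 63.8 and 58.7 CPM in PBS. All EKO_exo libraries lay above PBS, whereas WT_exo overlapped both groups. The log2 fold change for EKO_exo over PBS was 0.22 ± 0.073 (adjusted p = 0.0849). It passed in 2 of 17 alternatives, when genes under 5 CPM were left out (adjusted p = 0.0345) and with no filter on low counts (0.0333).

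In complex II no gene passed by edgeR or DESeq2, and 1 (Sdhc) had an unadjusted p under 0.05. Sdhc had 80.3, 78.9 and 78.4 CPM in EKO_exo, 76.9, 76.0 and 81.3 CPM in WT_exo and 77.4, 71.2 and 68.1 CPM in PBS. Its log2 difference was 0.13 ± 0.059 for EKO_exo over PBS (adjusted p = 0.233). The EKO_exo libraries lay just above PBS. Sdha, which binds the flavin, differed by -0.064 ± 0.038 (adjusted p = 0.423), the iron-sulfur gene Sdhb by -0.007 ± 0.049 and the other anchor gene Sdhd by -0.088 ± 0.060.

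In complex III no gene passed by edgeR or DESeq2 either, 1 (Uqcr10) had an unadjusted p under 0.05, and the median log2 fold change was -0.015 for EKO_exo over PBS. Uqcr10, a small membrane subunit, had 62.3, 72.2 and 63.4 CPM in EKO_exo, 62.8, 65.9 and 67.3 CPM in WT_exo and 73.9, 76.7 and 68.3 CPM in PBS. Its difference was -0.15 ± 0.066 for EKO_exo over PBS (adjusted p = 0.244) and -0.16 ± 0.066 for WT_exo over PBS (adjusted p = 0.205). WT_exo lay below PBS, whereas 1 EKO_exo library lay within the PBS range. Uqcr11 differed by 0.17 ± 0.127 and Uqcrb by -0.007 ± 0.111 in EKO_exo over PBS, both from genes with pseudogene copies.

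Complex IV had the members nearest to a rise. Cox6a1 (chromosome 5, 115345642 to 115348981, minus strand) had 113, 110 and 117 CPM in EKO_exo, 105, 106 and 106 CPM in WT_exo and 101, 102 and 102 CPM in PBS. The 3 groups did not overlap, EKO_exo being highest and PBS lowest. Its log2 fold change was 0.16 ± 0.048 for EKO_exo over PBS (adjusted p = 0.0513) and 0.055 ± 0.047 for WT_exo over PBS (adjusted p = 0.670).

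Cox7a2l (chromosome 17, 83501918 to 83517330, minus strand) had 73.2, 78.8 and 69.4 CPM in EKO_exo, 69.2, 70.6 and 72.0 CPM in WT_exo and 65.1, 62.5 and 65.1 CPM in PBS. Every exosome library lay above every PBS library, with log2 fold changes of 0.20 ± 0.061 for EKO_exo (adjusted p = 0.0521) and 0.14 ± 0.060 for WT_exo (adjusted p = 0.250). Both Cox6a1 and Cox7a2l passed for EKO_exo over PBS with DESeq2 size factors, with the DESeq2 test or with the filter at 5 CPM, at adjusted p of 0.0094 to 0.0474. Of 17 alternatives, Cox6a1 passed in these 3 only and was not called in 14. Cox7a2l passed in 4, the other being the fit without EKO_exo replicate 3 (adjusted p = 0.0284), and was not called in 13. Ndufa4 differed by -0.005 ± 0.058 for EKO_exo over PBS, Cox4i1 by 0.011 ± 0.042, Cox6b1 by 0.067 ± 0.057, Cox7b by 0.077 ± 0.064 and Cox8a by -0.004 ± 0.056.

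In complex V the median log2 fold change for EKO_exo over PBS was -0.013, with 6 of 17 members above 0. Atp5d, the delta subunit of the central stalk, had 305, 290 and 282 CPM in EKO_exo, 276, 263 and 272 CPM in WT_exo and 276, 283 and 263 CPM in PBS, a difference of 0.094 ± 0.039 for EKO_exo over PBS (adjusted p = 0.190). Atp5l, a membrane subunit at the dimer interface with pseudogene copies, had 14.6, 17.1 and 12.2 CPM in EKO_exo, 16.1, 17.3 and 18.7 CPM in WT_exo and 16.2, 19.3 and 17.0 CPM in PBS, a difference of -0.26 ± 0.124 (adjusted p = 0.284). The groups overlapped for both genes. Counted over all members, groups did not overlap in 4 with EKO_exo higher and in 7 with EKO_exo lower, that is in 4.49% and 7.87% of members, against 9.94% and 10.6% of all genes tested and 13.4% and 12.8% of those at 10 CPM or more.

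**Figure D4:**
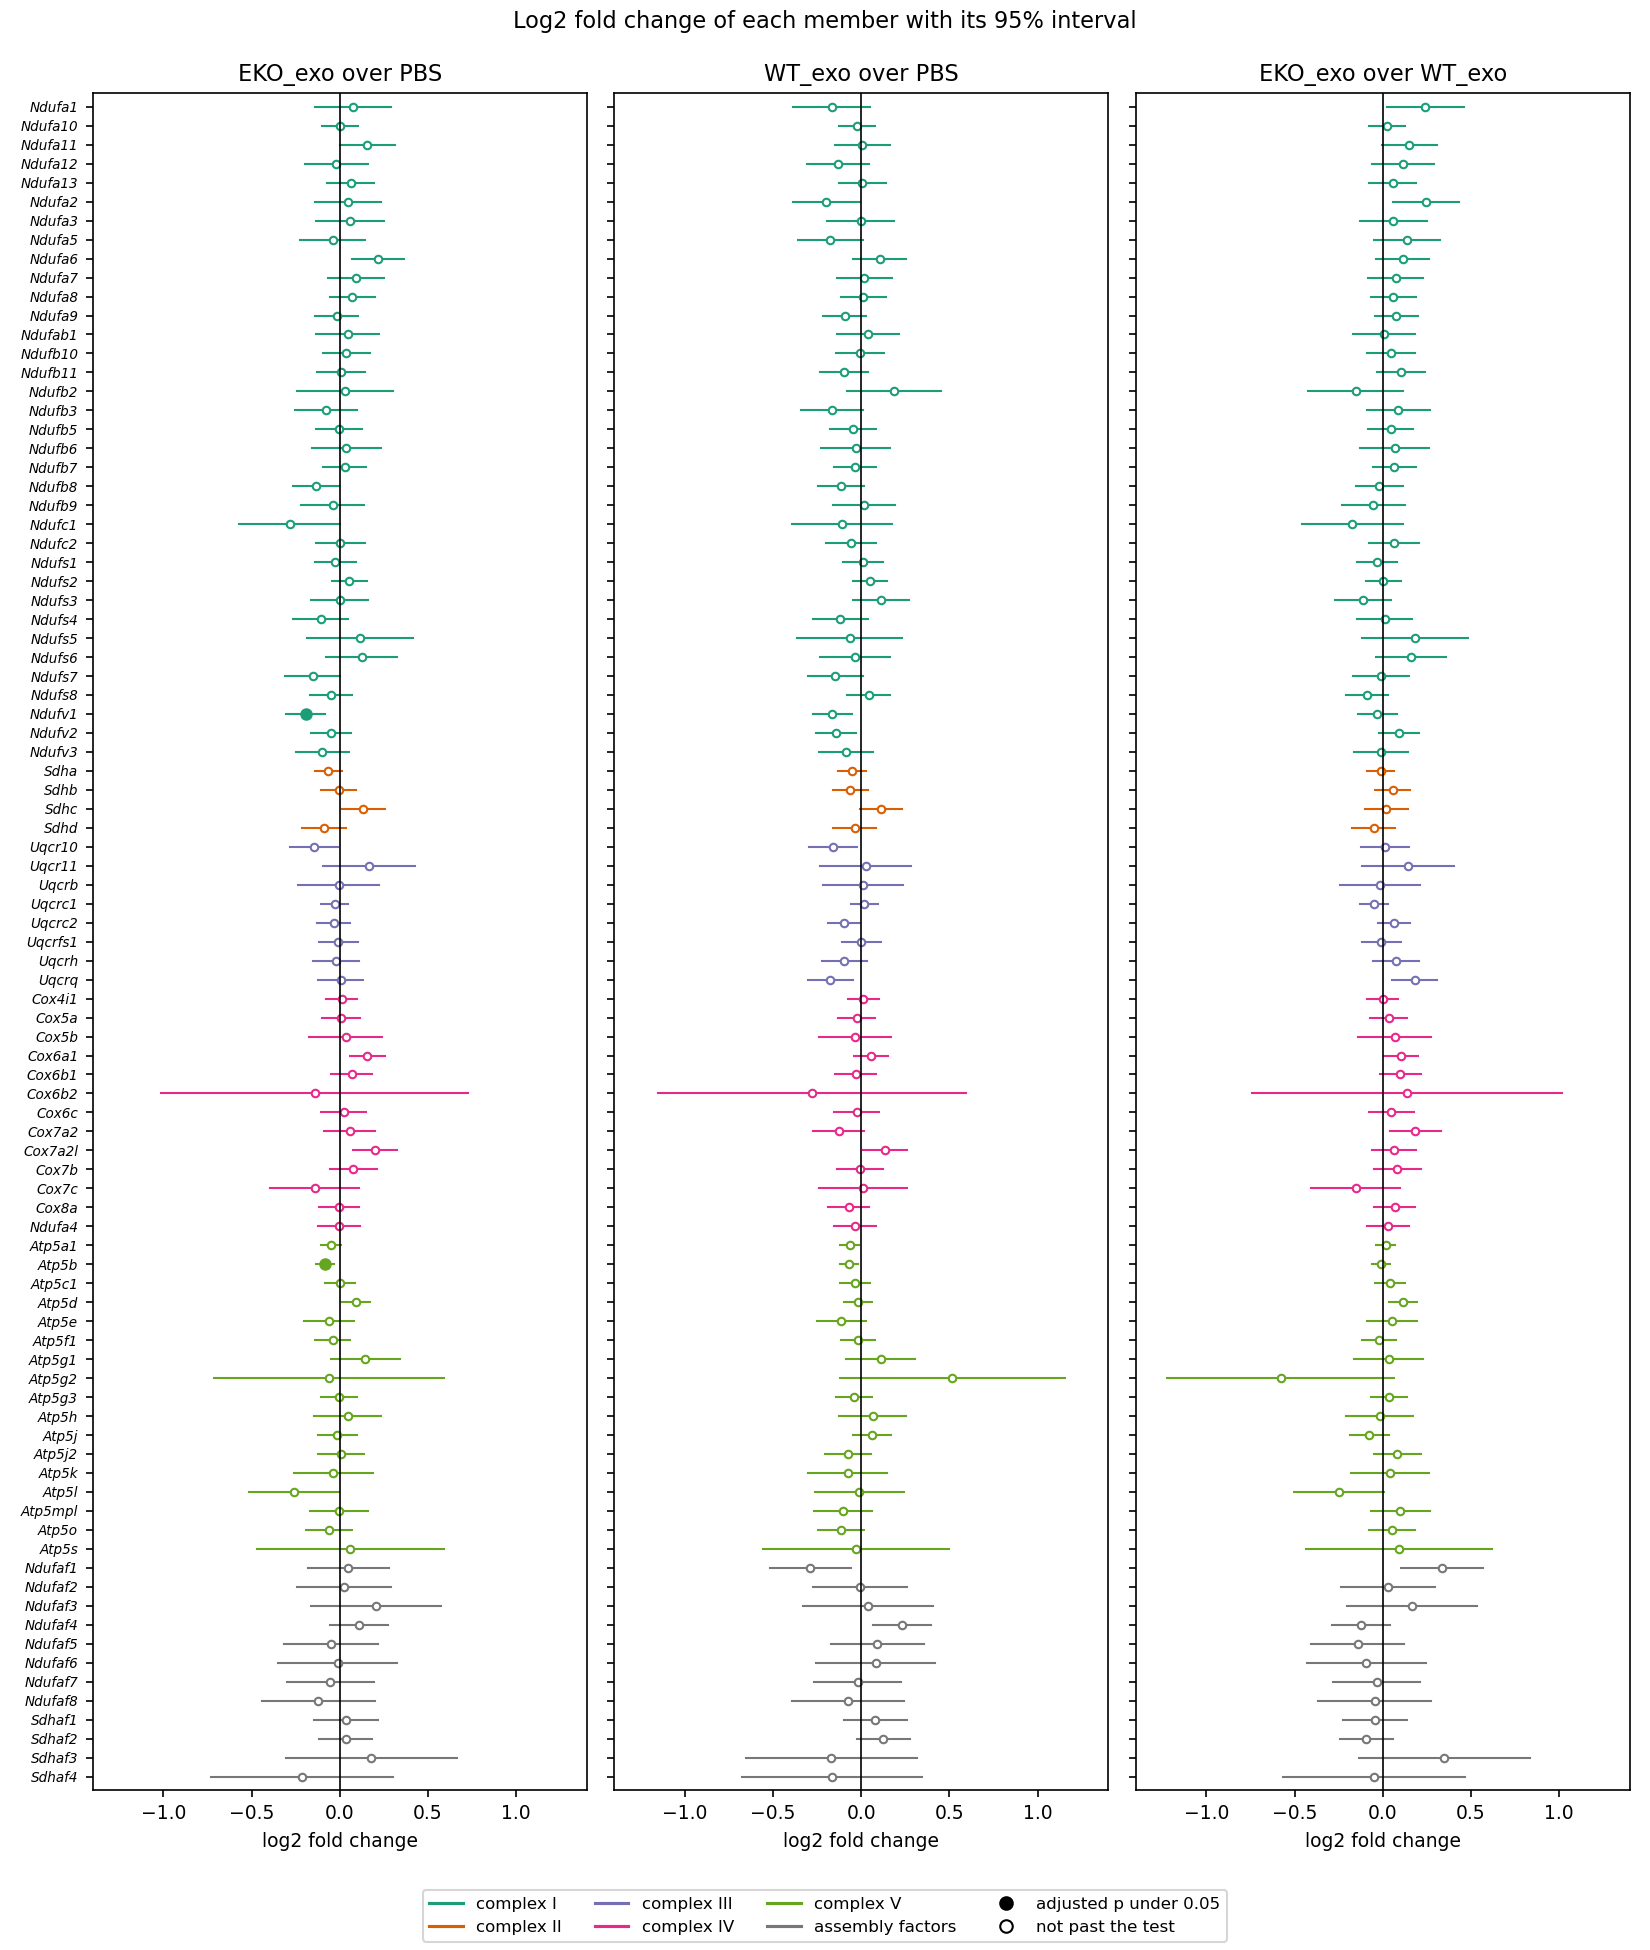
Log2 fold change of each of the 89 members with its 95% interval (horizontal axes), in rows grouped and coloured by complex, for EKO_exo over PBS, WT_exo over PBS and EKO_exo over WT_exo. Filled dots passed an adjusted p of 0.05; open dots did not. Ndufv1 and Atp5b in EKO_exo over PBS are the 2 filled dots, and the wide intervals belong to low genes such as Cox6b2 and Atp5g2.

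The second comparison asked the same of exosomes of wild-type BMDM relative to PBS. No member passed the test, against 4.97% of all genes tested, 1.83% higher and 3.14% lower, and 7.96% of the genes at 10 CPM or more. The edgeR test gave 11 members an unadjusted p under 0.05, 2 higher and 9 lower, or 12.4% of members, against 15.8% of all genes. DESeq2 called Ndufv1 and Atp5b, both lower, among 413 genes higher and 573 lower over all genes. The median log2 fold change was -0.033 over the members, 30 of them positive and 59 negative, and 0.0031 over all genes. Groups did not overlap in 4 members with WT_exo higher and 14 with WT_exo lower, or 4.49% and 15.7%, against 10.6% and 11.6% of all genes and 14.1% and 14.2% of those at 10 CPM or more, so the share lower was near that of genes at such levels. The SD of a library's own member median within groups was 0.045. The members' 95% intervals lay within 1.5-fold for 85 of 89.

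Uqcrq, a small ubiquinone-binding subunit of complex III, had 89.0, 83.0 and 92.5 CPM in WT_exo and 110, 93.6 and 94.6 CPM in PBS, while EKO_exo had 94.9, 106 and 98.6 CPM. WT_exo lay below every other library. Its log2 fold change was -0.17 ± 0.063 for WT_exo over PBS (adjusted p = 0.123) and 0.18 ± 0.063 for EKO_exo over WT_exo (adjusted p = 0.531). Uqcrc2, a core protein of the same complex, had 172, 171 and 173 CPM in WT_exo and 195, 176 and 181 CPM in PBS, a difference of -0.10 ± 0.044 (adjusted p = 0.252).

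In complex I, Ndufv2 had 73.9, 77.3 and 76.8 CPM in WT_exo, below all PBS libraries at 87.2, 84.4 and 80.4 CPM, a log2 difference of -0.14 ± 0.055 (adjusted p = 0.155). Ndufa2, an accessory subunit, had 32.7, 42.3 and 41.5 CPM in WT_exo and 50.2, 43.2 and 40.1 CPM in PBS, where WT_exo replicate 1 was lowest of all and the groups overlapped. Its difference was -0.20 ± 0.092 (adjusted p = 0.284). Sdhb differed by -0.063 ± 0.049 for WT_exo over PBS and Sdhc by 0.11 ± 0.059. Atp5g2 had the largest fitted value, 0.52 ± 0.311 (adjusted p = 0.468), which rests on WT_exo replicate 2 at 5.24 CPM beside 2.46 and 2.58 CPM in the other two.

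The third comparison set exosomes of ApoE-deficient BMDM against those of wild-type BMDM. Here 5 of all 14684 genes passed (0.0341%), 4 of them higher (0.0272%) and 1 lower (0.00681%), and none was a member. By the edgeR test 7 members had an unadjusted p under 0.05, all higher in EKO_exo, which is 7.87% of members against 7.08% of all genes. DESeq2 called no member. The median log2 fold change was 0.042 over the members, with 58 positive and 31 negative, and 0.0016 over all genes. Without EKO_exo replicate 2 it was 0.013. Genes with exons shorter than the median member had a median of 0.020, and the part of transcript length in the members' value was not tested.

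Groups did not overlap for 12 members with EKO_exo higher and for 1 with EKO_exo lower, or 13.5% and 1.12% of members, against 5.88% and 5.97% of all genes and 6.52% and 6.09% of those at 10 CPM or more. Among the 12, Ndufa1, an accessory subunit of the membrane arm, had 33.7, 32.7 and 29.9 CPM in EKO_exo and 24.6, 27.2 and 29.6 CPM in WT_exo. Its log2 difference was 0.24 ± 0.105 (adjusted p = 0.656). Ndufa2 had 45.1, 44.9 and 48.0 CPM in EKO_exo, all above WT_exo, with a difference of 0.25 ± 0.092 (adjusted p = 0.583). Cox7a2 had 64.2, 72.7 and 62.4 CPM in EKO_exo and 58.2, 61.1 and 56.1 CPM in WT_exo, a difference of 0.18 ± 0.071 (adjusted p = 0.603). Atp5d differed by 0.11 ± 0.039 (adjusted p = 0.529) and Cox6a1 by 0.10 ± 0.047 (adjusted p = 0.683). For Ndufa1, Ndufa2 and Cox7a2 the PBS libraries overlapped both exosome groups.

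The level of the members as a whole also varied between libraries of 1 group. Each library was set against each gene's mean over the PBS libraries. The median member then stood at 0.011, 0.047 and -0.049 in EKO_exo replicates 1, 2 and 3, at -0.057, -0.052 and -0.0043 in WT_exo and at 0.047, -0.0016 and -0.050 in PBS (log2). The EKO_exo libraries thus spanned both signs. Those of PBS are centred on their own mean, so a spread over both signs says little there. Within groups the SD of a member's log2 values had a median of 0.096, against 0.081 for the 8584 genes tested whose mean was 10 CPM or more.

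None of the 12 assembly factors passed in any comparison by edgeR or DESeq2, and 0, 2 and 1 had an unadjusted p under 0.05 in EKO_exo over PBS, WT_exo over PBS and EKO_exo over WT_exo. Ndufaf1, an early factor of complex I assembly, had 19.1, 17.6 and 17.0 CPM in EKO_exo, 15.2, 14.1 and 13.2 CPM in WT_exo and 18.9, 17.0 and 16.1 CPM in PBS. WT_exo lay below all other libraries. The differences were -0.29 ± 0.113 for WT_exo over PBS (adjusted p = 0.169), 0.34 ± 0.113 for EKO_exo over WT_exo (adjusted p = 0.512) and 0.047 ± 0.112 for EKO_exo over PBS (adjusted p = 0.896).

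Ndufaf4, another complex I factor, had the opposite sign. It had 41.3, 47.1 and 39.7 CPM in EKO_exo, 49.4, 42.5 and 47.7 CPM in WT_exo and 40.3, 39.7 and 38.7 CPM in PBS, with WT_exo above PBS by 0.23 ± 0.080 (adjusted p = 0.0998). Ndufaf3 had 5.34 to 8.30 CPM over all libraries and differed by 0.20 ± 0.180 for EKO_exo over PBS. Sdhaf3 and Sdhaf4, which serve complex II, had intervals too wide to exclude a 1.5-fold change in either of the comparisons with PBS. Of 42 measured assembly factors outside these name prefixes, such as Surf1 and Sco1 for complex IV, none passed by edgeR in any comparison, with medians of -0.018, -0.025 and 0.0063 for EKO_exo over PBS, WT_exo over PBS and EKO_exo over WT_exo and with 4, 1 and 3 genes at an unadjusted p under 0.05. DESeq2 called 1, 0 and 0 of them. The 1 was Timmdc1, a complex I factor that was picked after its values were seen, at 21.7 ± 1.93 CPM in EKO_exo against 27.2 ± 2.42 CPM in PBS (DESeq2 adjusted p = 0.0368, edgeR adjusted p = 0.0647).

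Genes around the chain were taken from lists. Over all genes tested, 2.87% and 3.14% were lower in EKO_exo and WT_exo than in PBS, and 4.55% and 4.93% of those at 10 CPM or more. Of 14 carriers and exchange proteins, Vdac1, the main channel of the outer membrane, fell to 214 ± 6.27 CPM in EKO_exo and 211 ± 7.41 CPM in WT_exo, against 236 ± 5.19 CPM in PBS (log2 -0.14 ± 0.040 and -0.16 ± 0.040, adjusted p = 0.0386 and 0.0150). In EKO_exo its call held in 8 of 17 alternatives and was lost without EKO_exo replicates 1 or 3, WT_exo replicates 1 or 3, or PBS replicates 1 or 2 (adjusted p = 0.0502 to 0.169). In WT_exo it held in 14 and was lost without WT_exo replicate 2 or PBS replicates 1 or 2 (0.0725 to 0.131). Among genes of the tricarboxylic acid cycle, which supplies NADH and succinate, Suclg1, a subunit of succinyl-CoA ligase, fell in both comparisons with PBS. It reached 125 ± 10.8 CPM in EKO_exo and 122 ± 3.32 CPM in WT_exo, against 148 ± 4.34 CPM in PBS (log2 -0.24 ± 0.052 and -0.28 ± 0.052). The call in EKO_exo was lost only without EKO_exo replicates 1 and 3 together (adjusted p = 0.547), and that in WT_exo in none of 17 alternatives. The medians over the 18 genes of the cycle list were -0.032 and -0.036.

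Of 17 import and chaperone genes, 3 fell in EKO_exo (Hspd1, Hspa9 and the protease Lonp1) and 2 in WT_exo (Hspd1 and Hspa9). In those comparisons 2.87% and 3.14% of all genes tested were lower, and 4.55% and 4.93% of those at 10 CPM or more. The medians over this list were -0.056 and -0.031. Hspd1, the matrix chaperonin, fell to 455 ± 17.5 CPM in EKO_exo and 457 ± 17.7 CPM in WT_exo, against 520 ± 29.9 CPM in PBS (log2 -0.19 ± 0.039 in each, adjusted p = 0.0024 and 0.0028). Its call in EKO_exo held in all 17 alternatives and that in WT_exo in all but the one without PBS replicate 1 (adjusted p = 0.0511). Hspa9 was lost in EKO_exo without PBS replicate 1 (0.0517) and in WT_exo without WT_exo replicates 2 or 3 or PBS replicate 1 (0.0558 to 0.187). Lonp1 was lost without EKO_exo replicates 1 or 2 or PBS replicates 1 or 2 (0.0547 to 0.194). Of 78 mitochondrial ribosomal protein genes only 1 passed in each comparison with PBS, as lower, against the same 2.87% and 3.14% of all genes tested. This was Mrpl40, with log2 fold changes of -0.30 ± 0.081 and -0.29 ± 0.081. Its call was lost in EKO_exo without EKO_exo replicate 1 or any 1 PBS library (adjusted p = 0.0724 to 0.172) and in WT_exo without any 1 WT_exo or PBS library (0.0543 to 0.172).

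Among 20 measured regulators of respiratory genes and mitochondrial biogenesis, Myc and Yy1 rose in EKO_exo and Myc in WT_exo. In those comparisons 2.21% and 1.83% of all genes tested were higher, and 3.7% and 3.03% of those at 10 CPM or more. Myc, a transcription factor of growing cells, had 701 ± 22.9 CPM in EKO_exo and 693 ± 13.5 CPM in WT_exo, against 638 ± 20.04 CPM in PBS (log2 0.14 ± 0.032 and 0.12 ± 0.032, adjusted p = 0.0089 and 0.0228). Its call was lost in EKO_exo without EKO_exo replicate 2 or PBS replicate 3 (adjusted p = 0.0528 and 0.0745) and in WT_exo without WT_exo replicates 1 or 2 or PBS replicates 1 or 3 (0.0527 to 0.152). Yy1, the factor of the YY1 motif, had 183 ± 12.4 CPM in EKO_exo against 163 ± 8.33 CPM in PBS (log2 0.16 ± 0.049, adjusted p = 0.0490). The groups overlapped, since EKO_exo replicate 3 (168.7 CPM) lay below PBS replicate 3 (172.8 CPM). The value stands at the threshold and passed it in 6 of 17 alternatives. The call was lost without EKO_exo replicates 1 or 2, any 1 WT_exo library, or PBS replicates 1 or 2 (adjusted p = 0.0667 to 0.253).

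Of the 13 subunits encoded by mitochondrial DNA 7 were measured, of which 1 fell in EKO_exo and 3 fell in WT_exo relative to PBS. Over all genes tested, 2.87% and 3.14% were lower in those comparisons. The genes mt-Co2, mt-Co3, mt-Atp6, mt-Atp8 and mt-Nd4l were at 0 CPM in every library. mt-Nd3 reached at most 0.453 CPM, whereas mt-Co1 had 6024 CPM or more. The cause of these missing counts was not tested. mt-Cytb of complex III fell to 4116 ± 162 CPM in EKO_exo and 3864 ± 172 CPM in WT_exo, against 4425 ± 49.9 CPM in PBS (log2 -0.10 ± 0.026 and -0.20 ± 0.026). Its call in EKO_exo was lost without EKO_exo replicates 1 or 2 or PBS replicate 2 (adjusted p = 0.0676 to 0.106), and that in WT_exo in none of 17 alternatives. mt-Nd4 and mt-Nd5 of complex I fell in WT_exo by 0.20 ± 0.035 and 0.16 ± 0.033 on the log2 scale and did not pass in EKO_exo. Between the exosome groups mt-Nd4 was higher in EKO_exo, with 791 ± 23.6 CPM against 690 ± 30.9 CPM in WT_exo (log2 0.20 ± 0.035, adjusted p = 0.0207), and it was the only gene of the surrounding lists to pass there. That call was lost without EKO_exo replicates 2 or 3 or any 1 WT_exo library (adjusted p = 0.0596 to 0.352).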

How the data were processed

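Messenger RNA was sequenced in 9 libraries of splenic CD4+ T cells, 3 per group. Per the labels' protocols, a Qiagen RNeasy Mini kit served for RNA and the Universal Plus mRNA-Seq kit for libraries. STAR 2.7.5c was the aligner and GRCm38 the genome, per the submitters' processing notes. The authors deposited raw counts, whole numbers for each gene that were not normalized. How reads were counted (tool, strand setting, annotation) is not given in the sources used here, so overlapping genes, which 20 members have, cannot be told apart. Symbols, coordinates and exon lengths came from GENCODE M21 by gene identifier (55450 of 55536 matched), and promoter sequences from RefSeq, build GRCm38.p6 (74 members by symbol, 2 by synonym). No promoter is shown for other members, Cox7a2l among them.

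The counts were tested with edgeR 4.0.16 (R 4.3.3). Genes kept by filterByExpr (minimum count 10, minimum total 15) numbered 14684, including all 89 members, and 84 members had at least 100 counts in every library. A model of the 3 groups was fitted to all 9 libraries with TMM scaling, and groups were compared by the quasi-likelihood F test with Benjamini-Hochberg adjustment over all genes tested, at 0.05. All adjusted p-values in the text are from this test unless DESeq2 (1.42.0) is named. CPM use the TMM-scaled library size, except that the level of 1 CPM for members used total counts. Intervals are 95% and rest on 6 residual and 21.1 prior degrees of freedom. Scripts were tested on simulated data. Replicates are biological by the design text, yet separate mice are named in no label, so the p-values cover only the spread among these cultures, which may be technical.

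Members and gene lists were chosen with earlier results of these data known, so no p is given over the members. Named with values are members that passed a test, the 2 with the smallest p per complex and comparison, the highest and lowest per kilobase, the core subunits of complex I, the Sdh subunits, the catalytic head, the isoform and c-ring genes, Ndufa4 and Cox7a2l, and called genes of the lists. Ndufc1, Sdhaf4, Uqcrc1 and the examples of promoter matches fall outside that rule and were picked with their values in view. Alternatives were another scaling, filter, test or set of libraries, and a block for the replicate number. Results for some genes of the lists are not reported here.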

Additional observations from a re-analysis of the deposited data

How the results depend on the processing

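Of 2034 values of 40 named members under the alternatives, 2000 kept their side of the threshold, 18 lost a call, 16 gained one and no called value changed sign, while 101 changed sign with a call in neither setting. Depth limits the low genes most, since the members' lowest library count was 23. For EKO_exo against PBS (325 genes higher, 421 lower, 0 and 2 members), DESeq2 gave 538 genes higher and 2 members higher (Cox6a1 and Cox7a2l). DESeq2 size factors gave 2 members higher and 1 lower, no filter 1 and 1, the filter at 5 CPM 3 higher, and a fit of only the 2 groups 1 lower. Without EKO_exo replicates 1 and 3 together there were 84 genes higher, 165 lower and 0 members lower. For WT_exo against PBS (269 genes higher, 461 lower, 0 members), a fit of the 2 groups gave 436 genes higher with 1 member higher (Ndufaf4) and 1 lower (Ndufv1), DESeq2 413 genes higher and 2 members lower, and the filter at 5 CPM 2 members lower (Ndufv1 and Uqcrq). For EKO_exo against WT_exo (4 genes higher, 1 lower), no filter gave 24 and 4, the filter at 5 CPM 7 and 2, DESeq2 23 and 9, and the set without EKO_exo replicates 1 and 3 gave 0 and 0, with no member called in any of these. The cause of these shifts was not tested. Leaving out 1 library at a time gave 148 to 293 genes higher and 227 to 400 lower for EKO_exo against PBS, with 0 to 1 members higher (Cox7a2l, without EKO_exo replicate 3) and 0 to 2 lower. For WT_exo against PBS it gave 129 to 337 higher and 269 to 533 lower, with 0 to 1 members lower (Ndufv1, without PBS replicate 3), and for EKO_exo against WT_exo 0 to 5 higher and 0 to 2 lower. The median of the members ranged from -0.028 to 0.031, from -0.068 to -0.018 and from 0.013 to 0.057 in these 3 comparisons. It changed sign with the library left out, and with DESeq2 size factors (0.0021), for EKO_exo against PBS only.

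Replicate numbers did not pair the libraries: deviations of same-numbered libraries correlated at -0.020 to 0.024. With the number as a replicate block, 1 member (Ndufv1) was lower for EKO_exo against PBS, and 1 gene was higher and 0 lower for EKO_exo against WT_exo.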

Other observations

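The 9 genes matched by name but below 1 CPM were not tested as members. Ndufb4, an accessory subunit of complex I, gave 74 counts in EKO_exo, 79 in WT_exo and 61 in PBS, a mean of 0.803 CPM, and shares a stretch with 1 pseudogene. Ndufa4l2, a gene known to be induced by low oxygen, gave 0, 5 and 3 counts in those groups. Cox7a1 gave 38 counts in EKO_exo, 12 in WT_exo and 22 in PBS, and Cox6a2 gave 36, 42 and 54. A further identifier that carries the symbol Atp5o was at 0 counts, beside the one counted as a member.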
